A study of Mus musculus with 22 samples.

Results

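Early CD44LoKitNeg cells were compared with CD44Neg cells of the same embryonic days, E9.5 and E10, by bulk RNA-seq of libraries made from 25 cells each. All libraries that the labels put in these populations and days were used. They were 3 CD44LoKitNeg libraries (replicate 14 at E9.5, replicates 15 and 16 at E10) and 7 CD44Neg libraries (replicates 4 to 7 at E9.5, replicates 8 to 10 at E10), which makes 10 of the 22 libraries of the series. Every library came from the aorta-gonad-mesonephros region (AGM) of untreated C57BL/6 mouse embryos, and every cell was sorted as positive for VE-cadherin, a junction protein of endothelium encoded by Cdh5. CD44Neg cells carried no detectable surface CD44, a receptor for hyaluronan, and are labelled endothelial cells. CD44LoKitNeg cells carried a low level of CD44 but no Kit, the receptor for stem cell factor, and are labelled hemogenic endothelial cells. Neither group carried a transgene, a deletion or a treatment, and the labels do not say how many embryos gave a library or whether libraries came from separate embryos. The p-values therefore measure only the spread between these libraries, which may be technical. In such bulk samples fewer cells of a type and less RNA per cell cannot be told apart.

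In the AGM, some endothelial cells of the dorsal aorta turn into blood cells, including the first haematopoietic stem cells, in the endothelial-to-haematopoietic transition. The transition runs through hemogenic endothelium, which keeps endothelial junctions while it switches on RUNX1 and other blood transcription factors. It takes place in arteries, where Notch signalling sustains the arterial programme, whereas veins follow a programme that depends on the nuclear receptor COUP-TFII, encoded by Nr2f2. The comparison asks which genes set the CD44LoKitNeg cells apart from CD44Neg endothelium at the days when the transition begins.

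Between 5625086 and 8657546 reads were counted per CD44LoKitNeg library and between 4049022 and 7132809 per CD44Neg library. A CD44LoKitNeg library held 11839 to 11996 detected genes and a CD44Neg library 10825 to 11951. The ribosomal precursor Rn45s took 7.29% to 11.1% of the CD44LoKitNeg counts. In CD44Neg it took 9.11% to 19.3% in 6 libraries and 1.92% in replicate 6. Levels are given as CPM, the counts of a gene scaled to the size of its library after TMM adjustment for composition. A count of 0 was taken to allow 3 counts, which is 0.359 to 0.728 CPM in these libraries and covers counting error only, since the reads carry no molecular identifiers. Pairs of libraries that shared population and stage gave a chi-square of 17.1 to 85.2 per degree of freedom, so no pair looked like 1 library deposited a second time. Reads from amplified cDNA are not independent molecules, and the statistic is given for that check alone. The date written in the labels changes with the embryonic day, so stage and date cannot be told apart.

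Of 11308 genes that passed the filter on low counts, 1388 (12.3%) differed between the populations at an adjusted p under 0.05 by the quasi-likelihood test of edgeR, adjusted after Benjamini and Hochberg, with stage as a covariate. Among them 784 were higher in CD44LoKitNeg (6.93% of the genes tested) and 604 were lower (5.34%). The median size of the difference over the called genes was 1.15 on the log2 scale. The 3 and 7 libraries did not overlap for 1630 genes, 14.4% of those tested, and 1052 of these were called, 602 higher and 450 lower. All 1388 called genes had the same direction within E9.5 and within E10, against 7599 of the 11308 tested genes. Because a fit with a common effect for both stages favours such genes, nothing is read from that count. The lower-against-higher split depended on the scaling. With upper-quartile scaling 653 genes were higher and 787 lower, which put the share of higher calls at 45.3% in place of 56.5%. The number of calls was 648 without CD44LoKitNeg replicate 14, 860 without replicate 15 and 959 without replicate 16. It was 931 without CD44Neg replicate 8 and 1569 without CD44Neg replicate 6. In all, 417 of the 1388 calls held whichever of the 10 libraries was left out. For single genes below, a log2 fold change of CD44LoKitNeg over CD44Neg is followed by its standard error, and adjusted p values are those of edgeR over all 11308 genes.

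**Figure D1:**
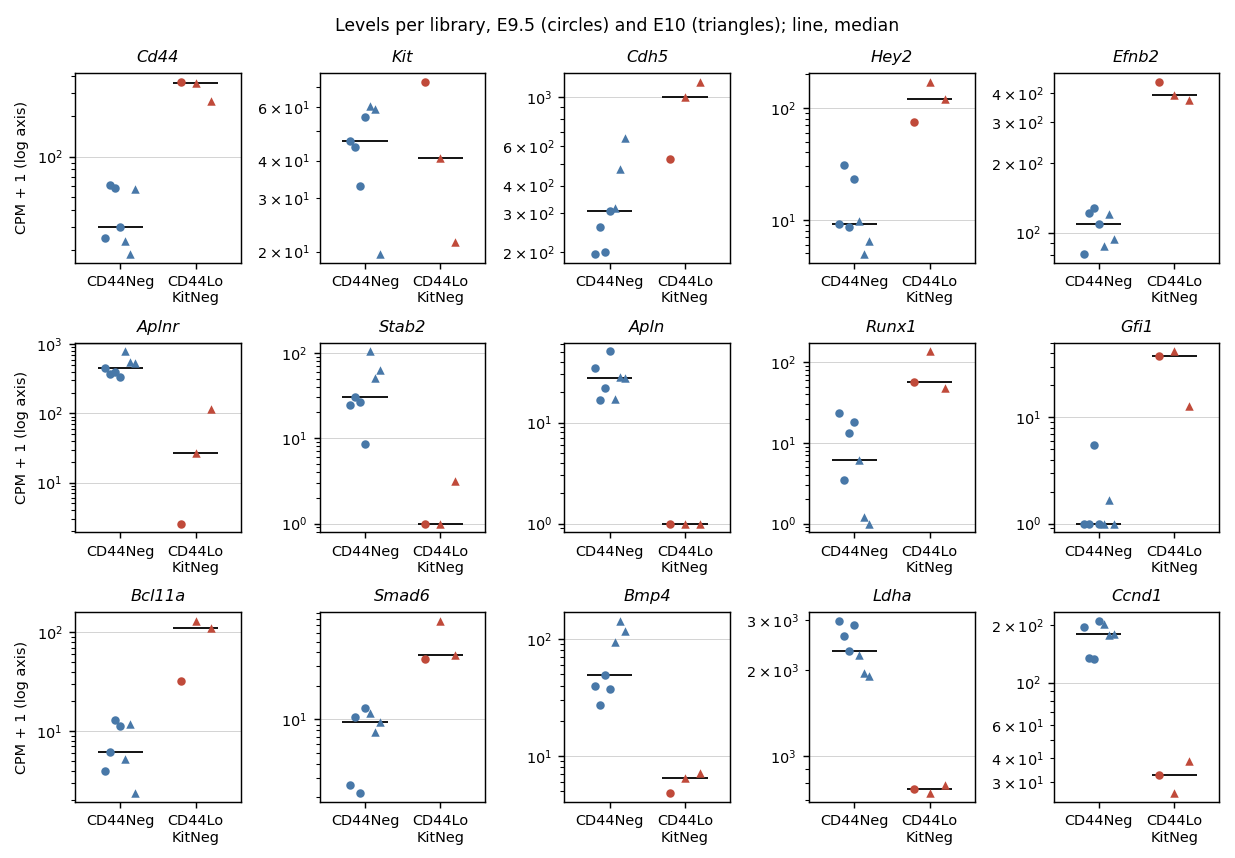
Normalized levels (CPM + 1, log axis) of 15 genes in each early library, with CD44Neg in blue and CD44LoKitNeg in red, E9.5 as circles, E10 as triangles and the group median as a line. The 3 CD44LoKitNeg libraries stood apart from all 7 CD44Neg libraries for every gene shown other than Kit and Cdh5, whose ranges overlapped.

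The genes used for sorting were examined first. Cd44 stood at 360.1, 355 and 261 CPM in CD44LoKitNeg replicates 14, 15 and 16 and at 17.7 to 59.98 (median 28.9) CPM over the 7 CD44Neg libraries. It was higher by 3.19 ± 0.36 on the log2 scale (edgeR adjusted p = 3.26e-04). The groups did not overlap, and the lowest CD44LoKitNeg library was far above the highest CD44Neg library. Kit mRNA stood at 71.7, 39.8 and 20.6 CPM in CD44LoKitNeg and at 18.7 to 59.7 (median 45.4) CPM in CD44Neg, and the difference was -0.01 ± 0.41 (edgeR adjusted p = 0.995). Cells sorted as negative for Kit protein thus held Kit mRNA over a range that overlapped that of CD44Neg cells, and the sign of this difference turned under several alternatives. Cdh5 was higher in CD44LoKitNeg, at 527, 999.7 and 1172 CPM against 196 to 652 (median 306) CPM, by 1.16 ± 0.21 (edgeR adjusted p = 0.00438). Its ranges overlapped across days. The level was also higher at E10 than at E9.5, and within each day the CD44LoKitNeg libraries lay above the CD44Neg libraries.

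Both populations held the endothelial mRNAs that their labels imply. The summed level of 12 defining endothelial markers, Cdh5 among them, was 5564 to 7708 CPM in CD44LoKitNeg and 5490 to 8841 CPM in CD44Neg. The sum hides opposite moves. Of these 12 markers 2 were called higher, Cdh5 and Tek, and 4 lower, against 6.93% and 5.34% over all tested genes. Their median log2 fold change was -0.43, with 10 values negative. Of 34 tested pan-endothelial genes 7 were higher, 5 were lower and 22 were not called, against 6.93% called higher and 5.34% called lower over all tested genes, with a median log2 fold change of -0.01 against -0.02 over all tested genes. Among those that rose, Calcrl, the receptor component for adrenomedullin, reached 1829.9, 1879 and 2025 CPM against 195 to 495 (median 353) CPM, a difference of 2.57 ± 0.24 (edgeR adjusted p = 1.26e-04). The angiopoietin receptor Tek stood at 704, 902 and 871 CPM against 348 to 485 (median 471) CPM (difference 0.84 ± 0.13, edgeR adjusted p = 0.00204). For both genes every CD44LoKitNeg library was above every CD44Neg library. Clec14a, a surface lectin of endothelium, rose as well, by 1.54 ± 0.19 (edgeR adjusted p = 5.00e-04). Of the genes that fell, the VEGF receptor gene Kdr stood at 264, 205 and 247 CPM against 283 to 482 (median 408) CPM (difference -0.81 ± 0.19, edgeR adjusted p = 0.0152). The tight junction gene Cldn5 differed by -0.69 ± 0.17, Egfl7 by -0.76 ± 0.18 and the transcription factor gene Ets1 by -1.36 ± 0.29. These calls rested on single libraries. Kdr lost its call without CD44LoKitNeg replicate 15 (adjusted p = 0.0677) or 16 (0.0532), Egfl7 without 15 (0.0654) or 16 (0.0700), Cldn5 without 14 (0.0751) or 15 (0.0736), and Ets1 without 14 (0.0752).

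Many of the arterial genes tested were higher in CD44LoKitNeg and many of the venous genes lower. Of 26 tested arterial genes 14 were higher and none was lower, with a median of 1.44 against -0.02 over all genes. The background was 6.93% called higher. Of 13 tested venous genes 7 were lower and none was higher, with a median of -2.11, against a background of 5.34% called lower. Without any 1 library the number of arterial genes called higher was between 9 (CD44LoKitNeg replicate 14 left out) and 15 (CD44Neg replicate 10 left out), and 9 of the 14 calls held in all 10 of these fits. The number of venous genes called lower was between 5 (without CD44LoKitNeg replicate 15) and 8 (without CD44LoKitNeg replicate 16), and 5 of the 7 calls held in all 10.

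Among the arterial genes, the transcriptional repressors Hey1 and Hey2 are direct targets of Notch signalling. Hey1 stood at 326, 329.9 and 315 CPM in CD44LoKitNeg and at 57.6 to 119 (median 86.2) CPM in CD44Neg, a difference of 1.99 ± 0.23 (edgeR adjusted p = 3.44e-04). Hey2 stood at 73.4, 170.4 and 119.8 CPM against 3.93 to 30.1 (median 8.13) CPM, a difference of 3.77 ± 0.59 (edgeR adjusted p = 0.00192). The 3 CD44LoKitNeg values of Hey1 were nearly equal, whereas Hey2 was lowest in the E9.5 library, and neither gene overlapped between groups. Efnb2 encodes ephrin-B2, the surface ligand that marks arteries. Its level was 448, 392 and 374 CPM against 79.9 to 127 (median 108) CPM, a difference of 1.98 ± 0.18 (edgeR adjusted p = 1.01e-04), and the gap was of like size within E9.5 (2.05) and within E10 (1.94) on the scale of log2(CPM + 1). The connexin genes Gja4 and Gja5, which form gap junctions of arterial endothelium, rose by 1.58 ± 0.25 and 1.68 ± 0.21 (edgeR adjusted p = 0.00192 and 6.11e-04). Gja4 reached 894, 667 and 1029.6 CPM against 180.4 to 416 (median 319.8) CPM in CD44Neg. The neuropilin gene Nrp1, a co-receptor for VEGF, stood at 1165, 1035 and 932 CPM against 352 to 497 (median 387) CPM (difference 1.36 ± 0.14, edgeR adjusted p = 1.88e-04). The tyrosine kinase gene Bmx stood at 151, 222 and 255 CPM against 1.37 to 59.6 (median 13.04) CPM (difference 3.31 ± 0.49, edgeR adjusted p = 0.00145). Mecom, a zinc-finger factor of both arterial endothelium and blood stem cells, stood at 542, 449 and 548 CPM against 28.6 to 127 (median 75.2) CPM (difference 2.81 ± 0.35, edgeR adjusted p = 6.11e-04). None of these genes overlapped between the groups. The remaining calls, Epas1, Vegfc, Edn1, Sox17 and Sox7, were higher by 0.71 to 1.82 and each lost its call without CD44LoKitNeg replicate 14. The Sox17 and Sox7 calls were each lost in 7 of the 10 fits without 1 library, that of Edn1 in 4 and that of Vegfc in 2. Without that library Epas1, the most firmly called of them, had an edgeR adjusted p of 0.0539.

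The promoter of Hey2 is shown because Hey2 had the largest rise among the called Notch targets. RefSeq sequence of build GRCm38.p6 was read from 250 bases before to 50 bases after the start at chr10:30842734-30843033 on the minus strand, and capitals mark TGGGAA or its reverse complement TTCCCA, the core letters bound by the Notch effector RBPJ.
Hey2: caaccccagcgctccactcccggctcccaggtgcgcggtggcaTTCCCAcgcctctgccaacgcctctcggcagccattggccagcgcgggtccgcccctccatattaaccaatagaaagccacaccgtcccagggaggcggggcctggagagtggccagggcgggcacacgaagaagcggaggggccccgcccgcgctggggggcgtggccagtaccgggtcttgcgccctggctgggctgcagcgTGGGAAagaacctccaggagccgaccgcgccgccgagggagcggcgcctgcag
The window held 2 matches. On both strands, TGGGAA was found in 25.6% of 32851 promoter windows, in 28.3% of genes with a window and in 26.6% of the 8736 tested genes with a window. Of the 4 Notch pathway genes called higher, 3 had a window and 1 of these (33.3%), Hey2, held a match. Of the 14 arterial genes called higher, 10 had a window and 2 of these (20%), Bmx and Hey2, held a match. A match is a description of the letters, and nothing is read from shares of so few genes.

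On the venous side, the apelin receptor gene Aplnr fell from 339 to 789.7 (median 453) CPM in CD44Neg to 1.56, 25.9 and 113 CPM in CD44LoKitNeg, a difference of -4.14 ± 0.78 (edgeR adjusted p = 0.00581). The 3 CD44LoKitNeg libraries differed widely among themselves, with the lowest value at E9.5, but all lay below the 7 CD44Neg libraries. Stab2, a scavenger receptor for hyaluronan of venous and sinusoidal endothelium, was at 0, 0 and 2.13 CPM against 7.64 to 103 (median 29.6) CPM (difference -6.45 ± 0.99, edgeR adjusted p = 0.00176). Flt4, the receptor for VEGF-C, stood at 98.6, 35.6 and 66.3 CPM against 194 to 358 (median 282) CPM (difference -2.11 ± 0.32, edgeR adjusted p = 0.00161). The neuropilin gene Nrp2, which works with Flt4, stood at 6.71, 2.64 and 3.26 CPM against 27.9 to 126 (median 65.8) CPM (difference -3.91 ± 0.57, edgeR adjusted p = 0.00141). Each of these genes was lower in every CD44LoKitNeg library than in any CD44Neg library. The ephrin-B2 receptor gene Ephb4 fell by 1.05 on the log2 scale (SE 0.27, edgeR adjusted p = 0.024), with overlapping ranges. It lost its call without CD44LoKitNeg replicate 15 or 16. The scavenger receptor gene Stab1 and the sialomucin gene Emcn completed the calls, with differences of -1.30 ± 0.28 and -0.83 ± 0.22. The Stab1 call held without any 1 library but was lost without the stage covariate and with all 22 libraries in the fit, and the Emcn call was lost without CD44LoKitNeg replicate 14 or 15 or CD44Neg replicate 8 or 10. Nr2f2 was at 0, 0 and 43.9 CPM in CD44LoKitNeg and at 77.5 to 254 (median 111) CPM in CD44Neg. It was at 0 in replicates 14 and 15 only, and its difference of -3.81 ± 1.27 did not pass the test (edgeR adjusted p = 0.0683), although the groups did not overlap. It was called in 4 of 12 alternative settings.

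Of 24 tested genes of sprouting tip cells 5 were lower, 1 was higher and 18 were not called, against 5.34% lower and 6.93% higher over all tested genes, with a median of -0.30. Apln encodes apelin, the ligand of Aplnr. It was at 0 in all 3 CD44LoKitNeg libraries and at 15.8 to 49.8 (median 26.8) CPM in CD44Neg, at least 62.3-fold lower (edgeR adjusted p = 3.30e-04). It passed the filter on low counts only through CD44Neg, so its direction was set by the filter. Kcne3, a subunit of potassium channels, stood at 12.5, 0 and 6.09 CPM against 63.1 to 208 (median 137) CPM (difference -4.43 ± 0.75, edgeR adjusted p = 0.00333). The ligand Apln and its receptor Aplnr were thus both lower in CD44LoKitNeg, with no overlap between groups for either. Flt4, Aplnr and Kdr, already described, made up the other falls, and the basement membrane gene Nid1 was the rise (0.77 ± 0.15, edgeR adjusted p = 0.0065), a call lost without CD44LoKitNeg replicate 14.

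**Figure D2:**
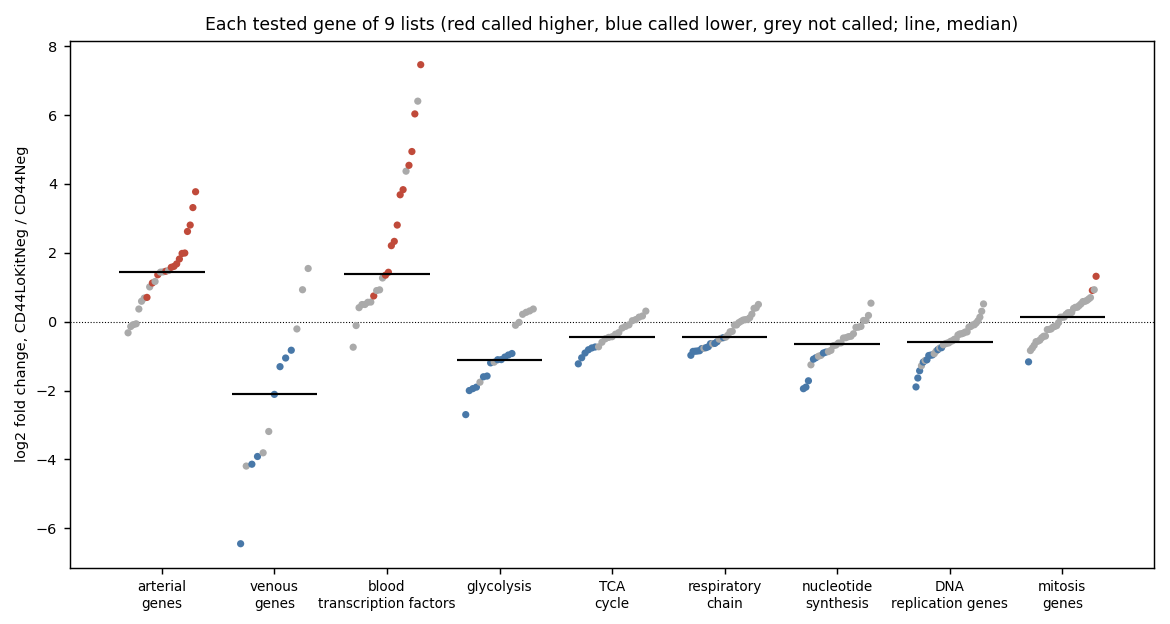
Log2 fold change of CD44LoKitNeg over CD44Neg (vertical axis) for each tested gene of 9 lists, with genes called higher in red, called lower in blue and not called in grey, and each list's median as a line. Genes absent from all libraries of a group are drawn at their bound. The medians ran from 1.44 for arterial genes to -2.11 for venous genes, with glycolysis at -1.10.

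In Notch signalling, a ligand on one cell cuts loose the intracellular part of a receptor on its neighbour, which then acts with RBPJ in the nucleus. Of 25 tested Notch pathway genes 4 were higher, against 6.93% over all tested genes, none was lower, and the median was 0.33. Of 4 tested ligands only Jag1 was called. It stood at 513, 826 and 676 CPM against 58.3 to 185 (median 99.8) CPM, a difference of 2.62 ± 0.31 (edgeR adjusted p = 4.18e-04), with no overlap. Dll4, the main Notch ligand of arteries, was at 51.9, 123 and 136 CPM against 9.12 to 69.9 (median 37.6) CPM (difference 1.01 ± 0.46, edgeR adjusted p = 0.175), and Jag2 was at 14.7, 18.8 and 30.5 CPM against 1.75 to 25.9 (median 9.42) CPM (edgeR adjusted p = 0.575). Both ranges overlapped. Dll1 went the other way, at 0.1198, 1.41 and 4.54 CPM against 0.455 to 22.7 (median 4.76) CPM, with overlap (difference -2.40 ± 1.58, edgeR adjusted p = 0.369). None of the 4 receptors was called, with log2 fold changes from -0.14 for Notch4 to 1.47 for Notch3. Notch1, the receptor with the best known role in arteries, stood at 94.2, 111 and 138 CPM against 25.9 to 182 (median 113) CPM. Adam10, the protease that makes the first cut in the receptor, was higher at 703, 907 and 852 CPM against 261 to 673 (median 322) CPM (difference 1.21 ± 0.26, edgeR adjusted p = 0.00971). With Hey1 and Hey2 the calls thus covered a ligand, a protease and targets, and all 4 held in each of the 10 fits without 1 library.

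BMP and TGF-beta ligands signal through serine kinase receptors and SMAD proteins, and in the AGM BMP4 comes chiefly from tissue below the aorta. Of 33 tested genes of this pathway 7 were higher and 2 lower, against 6.93% and 5.34% over all tested genes, with a median of 0.51. Of 4 tested ligands Bmp4 alone was called. It fell to 3.83, 5.46 and 6.24 CPM from 26.5 to 142 (median 48.7) CPM, a difference of -3.89 ± 0.37 (edgeR adjusted p = 1.26e-04). The E10 CD44Neg libraries held more Bmp4 than the E9.5 ones, and the CD44LoKitNeg libraries were below both. Of 10 tested receptors Bmpr1a and Bmpr2 were higher. Bmpr1a stood at 44.5, 44.02 and 33.4 CPM against 2.84 to 29.2 (median 12.9) CPM (difference 2.34 ± 0.53, edgeR adjusted p = 0.0141). Of 16 listed antagonists and modulators 9 passed the filter on low counts and 3 were called. Ltbp1, which holds latent TGF-beta in the matrix, stood at 145, 131 and 77.4 CPM against 2.18 to 25.7 (median 16.3) CPM (difference 2.95 ± 0.50, edgeR adjusted p = 0.00335). Smad6, an inhibitory SMAD, stood at 33.7, 75.9 and 37.3 CPM against 1.18 to 11.7 (median 8.42) CPM (difference 2.63 ± 0.63, edgeR adjusted p = 0.0164). Its relative Smad7 had the same order of groups without overlap but did not pass the test (1.78 ± 0.57, edgeR adjusted p = 0.0581), although it was called in 7 of 13 alternative settings. The secreted BMP regulator gene Bmper stood at 16.9, 33.6 and 62.1 CPM against 0 to 10.04 (median 0) CPM (difference 7.24 ± 1.91, edgeR adjusted p = 0.0263), with a CD44Neg median of 0, so that its direction was in part set by the filter on low counts. Calls were lost for Bmpr2 (adjusted p = 0.0930) and Ltbp1 (0.0506) without CD44LoKitNeg replicate 14, for Smad6 without 14 (0.102) or 15 (0.0768), and for Bmper without CD44LoKitNeg replicate 16 (0.0594), CD44Neg replicate 8 (0.0848), 9 (0.0764) or 10 (0.0696). The BMP target genes Id1 and Id3 were higher. Id1 stood at 336, 335 and 318 CPM against 45.7 to 212 (median 162) CPM (difference 1.54 ± 0.36, edgeR adjusted p = 0.0151), and Id3 rose by 0.97 ± 0.21 (edgeR adjusted p = 0.0104). Tgfbi, a matrix protein named for its induction by TGF-beta, was at 0 in all 3 CD44LoKitNeg libraries and at 0 to 40.4 (median 4.18) CPM in CD44Neg, at least 19.4-fold lower, or at least 7.18-fold without CD44Neg replicate 9. Its call was also lost without that library, which held the highest value, and in 7 of the other 9 fits without 1 library. Tgfbi passed the filter on low counts only through CD44Neg, so its direction was set by the filter.

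WNT genes moved both ways. Of 26 tested, 3 were higher and 4 lower, against 6.93% and 5.34% over all tested genes, with a median of 0.43. Ctnnb1, which encodes beta-catenin of junctions and WNT signalling, stood at 1452, 2184 and 2064 CPM against 418 to 843 (median 632) CPM (difference 1.60 ± 0.21, edgeR adjusted p = 6.79e-04). The secreted WNT antagonist gene Sfrp2 was at 151, 113 and 74.5 CPM against 0 to 34.9 (median 8.98) CPM (difference 3.98 ± 0.71, edgeR adjusted p = 0.00431). Neither gene overlapped between the groups. Lef1, a transcription factor of the pathway, fell to 10.1, 2.64 and 2.27 CPM from 15.7 to 57.9 (median 31.4) CPM (difference -2.84 ± 0.46, edgeR adjusted p = 0.00235). Myc and Ccnd1, which are WNT targets among other roles, were lower and are given with the growth genes. The frizzled receptor gene Fzd3 was higher (1.54 ± 0.38) and Fzd10 lower (-4.22 ± 1.09), and both lost their calls without CD44LoKitNeg replicate 15, while Fzd3 also lost it without 14 and Fzd10 without 16.

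Of 24 tested blood transcription factors 12 were higher in CD44LoKitNeg and none was lower, with a median of 1.39 against -0.02 over all genes and a background of 6.93%. Of the 7 factors known as the heptad, which bind together at blood stem cell enhancers, Runx1, Gata2 and Fli1 were called and Tal1, Lyl1, Lmo2 and Erg were not. Runx1, which drives the endothelial-to-haematopoietic transition, stood at 56.5, 136 and 46.9 CPM against 0 to 22.4 (median 5.17) CPM (difference 4.54 ± 1.10, edgeR adjusted p = 0.0184). Every CD44LoKitNeg library was above every CD44Neg library, while 3 of the 4 CD44Neg libraries of E9.5 held more Runx1 than any CD44Neg library of E10. The gap was therefore 2.29 within E9.5 and 5.37 within E10 on the scale of log2(CPM + 1). Without CD44LoKitNeg replicate 15, which held the highest value, the difference in Runx1 was 3.58 and its edgeR adjusted p 0.0630. Gata2, a zinc-finger factor that blood stem cells need, was at 46.1, 72.4 and 50.5 CPM against 9.51 to 32.8 (median 20.6) CPM (difference 1.35 ± 0.34, edgeR adjusted p = 0.0213), and lost its call without CD44LoKitNeg replicate 14 (adjusted p = 0.196) or 15 (0.0779). Among the uncalled factors, Lmo2 stood at 71.7, 57.9 and 134 CPM against 56.5 to 156 (median 106) CPM and Erg at 20.1, 22.5 and 22.7 CPM against 20.9 to 55.7 (median 37.2) CPM, with overlapping ranges. Tal1 and Lyl1 differed by 0.41 ± 0.41 and 0.50 ± 0.22.

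Outside the heptad 17 of 23 listed blood factors passed the filter on low counts and 9 were called higher, against 6.93% over all tested genes. Gfi1, Hlf, Myb and Nfe2 had a CD44Neg median of 0, so that their direction was in part set by the filter, and 6 factors were not tested. Hoxa9, which sustains blood stem cells, stood at 147, 204 and 207 CPM against 14.6 to 52.8 (median 30.5) CPM (difference 2.33 ± 0.23, edgeR adjusted p = 1.54e-04). Meis1, its partner on DNA, was at 33.1, 69.7 and 77.4 CPM against 4.37 to 17.3 (median 14.5) CPM (difference 2.21 ± 0.52, edgeR adjusted p = 0.0152). Bcl11a, a repressor of lymphoid and erythroid cells, was at 31.3, 129.6 and 110.4 CPM against 1.36 to 11.97 (median 5.099) CPM (difference 3.69 ± 0.68, edgeR adjusted p = 0.00503). These genes and Mecom were the blood factors called in all 10 fits without 1 library, and none of them overlapped between groups. Gfi1, a repressor that shuts off endothelial genes during the transition, was at 36.9, 40.8 and 11.8 CPM against 0 to 4.51 (median 0) CPM (difference 6.03 ± 1.44, edgeR adjusted p = 0.017). It was at 0 in 5 of the 7 CD44Neg libraries, and its call was lost without CD44LoKitNeg replicate 14 (adjusted p = 0.120) or 15 (0.0618). Spi1, the master factor of myeloid cells, was at 5.15, 78.9 and 40.1 CPM against 0 to 3.73 (median 1.199) CPM (difference 4.94 ± 1.49, edgeR adjusted p = 0.0469), and Hlf, a factor of stem cells, at 8.02, 54.9 and 34.6 CPM against 0 to 4.56 (median 0) CPM (difference 7.46 ± 2.07, edgeR adjusted p = 0.0332). Both were low in the E9.5 library and their calls were lost in 8 and 5 of the 10 fits without 1 library, with edgeR adjusted p values up to 0.168 and 0.0930. Ikzf2 and Cbfa2t3 were called as well, with differences of 3.83 ± 0.97 and 1.44 ± 0.34, and lost their calls without CD44LoKitNeg replicate 15, Ikzf2 also without 14 and Cbfa2t3 also without 16. The Fli1 call was lost in 8 of the 10 fits (0.75 ± 0.22). Myb, a factor of blood progenitors, stood at 8.02, 13.4 and 8.79 CPM against 0 to 6.34 (median 0) CPM and did not pass the test (edgeR adjusted p = 0.106). Without CD44LoKitNeg replicate 15 the number of blood factors called higher was 4 of the 12, and without CD44Neg replicate 6 it was 13.

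Of 24 tested surface and effector genes of blood cells 8 were higher and 1 was lower, against 6.93% and 5.34% over all tested genes, with a median of 1.60. Angpt1, Fcer1g, Vav1 and Was had a CD44Neg median of 0, so that their direction was in part set by the filter on low counts, and 16 listed genes were not tested. Of the 9 calls 2 held in all 10 fits without 1 library. Ifitm3 and Ifitm1, interferon-induced membrane proteins, held their calls without any 1 library, while Ifitm1 lost its call without the stage covariate. Ifitm3 stood at 239.9, 343 and 305 CPM against 35.2 to 114 (median 82.1) CPM (difference 2.02 ± 0.28, edgeR adjusted p = 8.86e-04), and Ifitm1 at 31.97, 34.5 and 37.7 CPM against 0 to 14.9 (median 3.15) CPM (difference 4.13 ± 0.97, edgeR adjusted p = 0.0153). Adgrg1, an adhesion receptor of blood stem cells also known as GPR56, was at 32.6, 114 and 50.5 CPM against 0 to 9.51 (median 3.41) CPM (difference 4.09 ± 1.02, edgeR adjusted p = 0.0206). Procr, the endothelial protein C receptor, was at 47.7, 139 and 126 CPM against 0 to 26.2 (median 14.6) CPM (difference 2.58 ± 0.69, edgeR adjusted p = 0.027). The groups did not overlap for either gene. The Adgrg1 call was lost without CD44LoKitNeg replicate 14 (adjusted p = 0.0822) or 15 (0.0832) or CD44Neg replicate 8 (0.0522), and the Procr call in 6 of the 10 fits. The calls of Arhgdib, Ctsc, Angpt1 and Was, and of the actin-bundling gene Lcp1, which was lower, were each lost without CD44LoKitNeg replicate 14, among other libraries. Was, an actin regulator of blood cells, was at 0 in all 7 CD44Neg libraries and at 2.04, 11.3 and 5.102 CPM in CD44LoKitNeg, at least 9.997-fold higher, or at least 5.82-fold without CD44LoKitNeg replicate 15. Ptprc, which encodes the pan-leukocyte antigen CD45, did not pass the filter and was at 0 in all 10 libraries.

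Genes that mark other cell types of the region were summed in each library. For 12 macrophage markers the sum was 38.1 to 83.6 CPM in CD44LoKitNeg, highest in replicate 14, and 3.18 to 25.9 CPM in CD44Neg. The 6 defining markers Adgre1, C1qa, C1qb, C1qc, Trem2 and Tyrobp were at 0 in all 10 libraries. Mrc1 stood at 40.6, 15.5 and 0 CPM in CD44LoKitNeg against at most 10.8 CPM in CD44Neg. Lyz2 stood at 19.2, 23.4 and 29.8 CPM against at most 5.03 CPM. Cx3cr1 was at 14.1 CPM in CD44LoKitNeg replicate 14 and at 0 in every other library, and Fcgr3 overlapped between the groups. Of 4 tested macrophage markers Lyz2 was called higher, a call lost in 6 of the 10 fits without 1 library (edgeR adjusted p up to 0.279). With a CD44Neg median of 0, its direction was in part set by the filter on low counts. Cd68 was not called and went the other way, at 0.958, 0 and 0.567 CPM against 0.994 to 8.98 CPM, without overlap. For 12 erythroid markers the sums were 22.5 to 37.8 CPM against 2.75 to 23.1 CPM, with 7 at 0 in all CD44LoKitNeg libraries, and for 9 megakaryocyte markers 18.7 to 32.3 CPM against 2.50 to 15.7 CPM, with 5 at 0. Neural and neural crest markers summed to 115 to 257 CPM against 23.8 to 57.5 CPM, with 6 of 10 at 0, and this sum was nearly all Stmn2 (called higher by 1.93 ± 0.35). Nephric and coelomic markers summed to 27.8 to 54.8 CPM against 0.795 to 35.3 CPM, with 7 of 11 at 0 and Krt18 called higher, a call lost in 8 of the 10 fits. For mesenchyme the sums overlapped, at 5.10 to 29.0 CPM against 0.393 to 41.5 CPM, with 6 of 13 at 0. Germ cell markers summed to at most 11.3 CPM. Sex-linked genes also moved with the groups, since Ddx3y and Uty of the Y chromosome were called higher, with differences of 1.55 ± 0.42 and 2.06 ± 0.42. The Ddx3y call was lost in 5 of the 10 fits without 1 library and fell to 0.98 (edgeR adjusted p = 0.325) without CD44LoKitNeg replicate 14, and the Uty call was lost without that library (edgeR adjusted p = 0.0776). The other tested sex-linked genes, Eif2s3y, Kdm5d and Xist, were not called. The part of these transcripts and of the mix of embryos in the differences above was not tested.

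**Figure D3:**
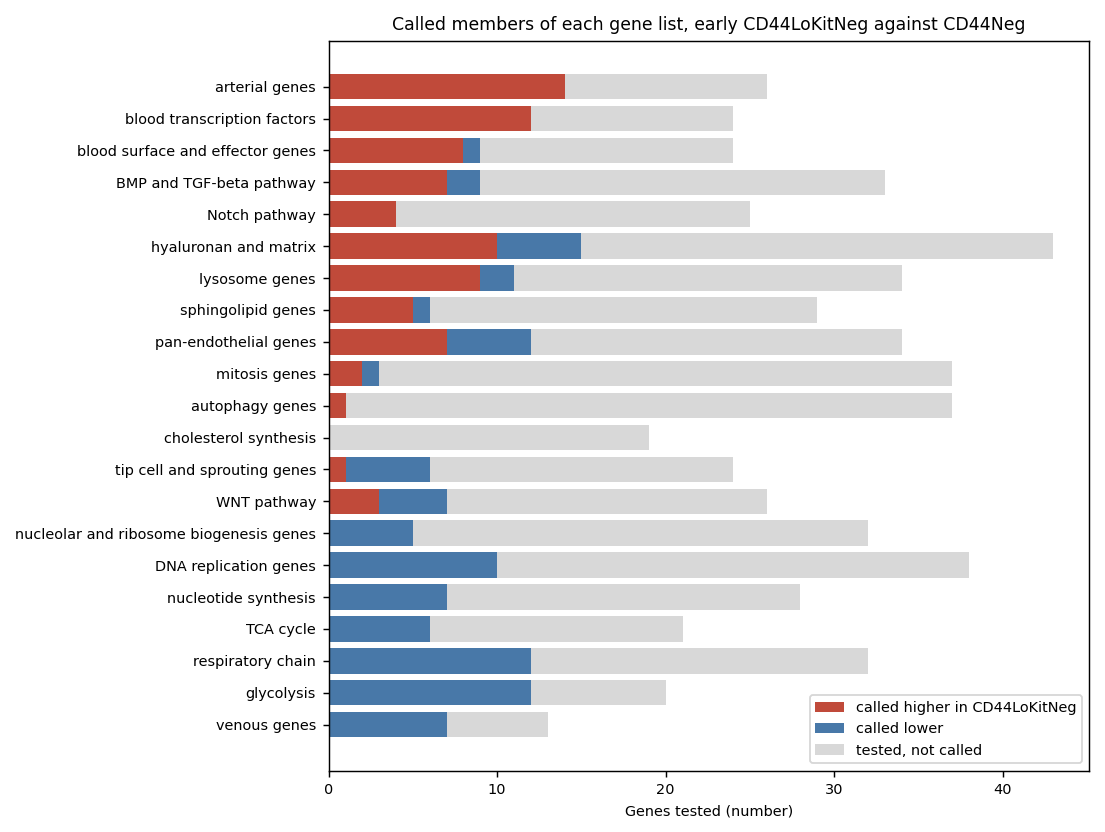
Number of genes tested in each of 21 gene lists (horizontal axis), divided into called higher in CD44LoKitNeg (red), called lower (blue) and not called (grey). Arterial genes (14 of 26) and blood transcription factors (12 of 24) held the most higher calls, and glycolysis (12 of 20) and the respiratory chain (12 of 32) the most lower calls.

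Many genes of glycolysis were lower in CD44LoKitNeg. Of 20 tested genes of glucose uptake and glycolysis 12 were lower and none was higher, with a median of -1.10 against a background of 5.34% called lower, and 10 of the 12 calls held in every fit without 1 library. Ldha, which turns pyruvate into lactate, stood at 761, 738 and 786 CPM against 1899 to 2978 (median 2337) CPM (difference -1.58 ± 0.14, edgeR adjusted p = 1.01e-04). Pkm, which makes pyruvate, stood at 520.2, 341 and 481 CPM against 1408 to 1936 (median 1669) CPM (difference -1.90 ± 0.16, edgeR adjusted p = 1.01e-04). For both genes every CD44LoKitNeg library was far below the lowest CD44Neg library. The aldolase gene Aldoa and the glucose-6-phosphate isomerase gene Gpi1 fell by 1.03 and 1.19 on the log2 scale (edgeR adjusted p = 6.11e-04 and 9.26e-04). The other falls, chosen after their values were seen, covered the glucose transporter gene Slc2a1 (425, 194 and 333 CPM against 589 to 771 (median 693) CPM), Pfkl, Pfkp, Tpi1, Gapdh, Pgk1, Pgam1 and the lactate exporter gene Slc16a3. The hexokinase genes Hk1 and Hk2, of the first step, were not called, with differences of 0.22 ± 0.80 and 0.27 ± 0.53. Several of these genes, Gapdh, Pgk1, Aldoa and Pgam1 among them, have processed pseudogenes, and the handling of reads shared with such copies is not given in the sources used here.

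Mitochondrial lists are read against the same background of 5.34% called lower and 6.93% called higher. In the tricarboxylic acid cycle 6 of 21 tested genes were lower and none was higher (median -0.44), and in the respiratory chain 12 of 32 were lower and none was higher (median -0.46). Cyc1, a subunit of complex III, stood at 127, 109 and 143 CPM against 213 to 307 (median 249) CPM (difference -0.97 ± 0.18, edgeR adjusted p = 0.00531), and the ATP synthase gene Atp5b fell by 0.78 on the log2 scale (edgeR adjusted p = 0.00586). Neither gene overlapped between groups. Fewer of these calls held without any 1 library, 2 of 6 in the cycle and 3 of 12 in the chain.

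Lists of genes that supply building blocks are read against the same background of 6.93% called higher and 5.34% called lower. In nucleotide synthesis 7 of 28 tested genes were lower and none was higher (median -0.65), and 3 of the 7 calls held in all 10 fits without 1 library. Gart, a purine synthesis enzyme, stood at 39.6, 31.3 and 42.5 CPM against 109.9 to 163 (median 117) CPM (difference -1.72 ± 0.22, edgeR adjusted p = 6.79e-04). Nme1, a nucleoside diphosphate kinase, stood at 526.2, 434 and 394 CPM against 706 to 1624 (median 1054) CPM (difference -1.09 ± 0.18, edgeR adjusted p = 0.00324). In amino acid synthesis and uptake 4 of 20 were lower and 1 was higher (median -0.69), and 1 of the 5 calls held in all 10. Asns, the asparagine synthetase, fell to 51.4, 4.58 and 17.6 CPM from 80.4 to 185 (median 177) CPM (difference -2.58 ± 0.40, edgeR adjusted p = 0.00194), and varied widely among the CD44LoKitNeg libraries. Of 32 tested nucleolar and ribosome biogenesis genes 5 were lower and none was higher (median -0.68, with 30 of 32 values negative), and 1 of the 5 calls held in all 10. Nhp2, a component of small nucleolar RNA particles, stood at 167, 162 and 121 CPM against 293 to 621 (median 424) CPM (difference -1.33 ± 0.19, edgeR adjusted p = 0.00141). In cholesterol synthesis, with 19 tested, none was called in either direction (median -0.39).

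The growth regulators Myc and Ccnd1 were lower in CD44LoKitNeg. Myc, a transcription factor that raises metabolic and ribosomal genes, stood at 26.2, 26.2 and 24.4 CPM against 54.9 to 127 (median 104) CPM (difference -1.96 ± 0.29, edgeR adjusted p = 0.00141). Ccnd1, which encodes cyclin D1 of the G1 phase, stood at 31.6, 25.4 and 37.7 CPM against 132 to 209 (median 179) CPM (difference -2.50 ± 0.24, edgeR adjusted p = 1.39e-04). For both genes the 3 CD44LoKitNeg libraries were close to each other and below every CD44Neg library. The Myc relative Mycn was not called and was not lower. Scaled with the E11 libraries, it stood at 96.2, 133 and 113 CPM against 32.6 to 97.1 CPM. Of 20 tested G1 cyclins and inhibitors 3 were higher and 2 lower, against 6.93% and 5.34% over all tested genes. The inhibitors Cdkn1b and Cdkn1c, which hold cells in G1, were higher by 1.63 ± 0.36 and 1.24 ± 0.34 (edgeR adjusted p = 0.0115 and 0.0303). Cdkn1b stood at 75.2, 91.7 and 59.4 CPM against 15.3 to 41.4 (median 20.1) CPM, and lost its call without CD44LoKitNeg replicate 14 (adjusted p = 0.107). Cdkn1c also lost its call without that library or replicate 16. The antiproliferative gene Btg1 was called higher (0.74 ± 0.22) and Ccnd3 lower (-0.81 ± 0.21), both with calls that rested on several single libraries.

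Over all tested genes 5.34% were called lower and 6.93% higher. Of 38 tested replication genes 10 were lower and none was higher (median -0.59, with 34 values negative), while of 37 tested mitosis genes 2 were higher, 1 was lower and 34 were not called (median 0.13), shares no higher than those over all tested genes. The difference between the lists was not tested. Several mitosis genes were among those whose difference at E11 departed from the early one, with lower levels in E11 CD44LoKitNeg than in E11 CD44Neg. Chaf1b, a histone loader at the replication fork, stood at 36.8, 22.9 and 25.8 CPM against 76.6 to 163 (median 106) CPM (difference -1.89 ± 0.26, edgeR adjusted p = 8.92e-04). The flap endonuclease gene Fen1 stood at 36.2, 54.9 and 24.1 CPM against 90.1 to 179 (median 114) CPM (difference -1.63 ± 0.30, edgeR adjusted p = 0.00478), and the helicase genes Mcm3 and Mcm7 fell by 0.81 and 0.98 on the log2 scale (edgeR adjusted p = 0.00662 and 0.00487). These genes were lower in every CD44LoKitNeg library than in any CD44Neg library. Of the mitosis genes, the spindle gene Nusap1 stood at 363, 281 and 79.4 CPM against 42.2 to 149 (median 113) CPM (difference 1.32 ± 0.38, edgeR adjusted p = 0.0397), with overlap, and Ttk rose by 0.91 ± 0.25. Both of these calls were lost in 6 of the 10 fits without 1 library, with edgeR adjusted p of 0.294 and 0.312 without CD44LoKitNeg replicate 14. Spc24 of the kinetochore fell by 1.17 (edgeR adjusted p = 0.00827). The proliferation marker gene Mki67, chosen after its values were seen, stood at 305, 283 and 80.8 CPM against 136 to 278 (median 215) CPM and was not called. Its CD44LoKitNeg libraries lay on both sides of the CD44Neg range.

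The promoters of Ldha and Nme1 are shown because both genes fell and both held the E-box letters CACGTG, which Myc and several other factors bind. Capitals mark CACGTG, which is its own reverse complement. The windows are from RefSeq on build GRCm38.p6, at chr7:46845554-46845853 on the plus strand for Ldha and at chr11:93968223-93968522 on the minus strand for Nme1, where each gene has a further annotated start that is not shown. The window of the other Ldha start held 0 matches and that of the other Nme1 start held 1.
Ldha: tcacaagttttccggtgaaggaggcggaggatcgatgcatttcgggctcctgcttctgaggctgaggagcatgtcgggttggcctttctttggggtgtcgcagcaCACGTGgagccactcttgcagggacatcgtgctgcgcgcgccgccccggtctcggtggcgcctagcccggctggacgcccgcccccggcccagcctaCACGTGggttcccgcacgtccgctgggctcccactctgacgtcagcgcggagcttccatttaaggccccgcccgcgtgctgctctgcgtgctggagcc
Nme1: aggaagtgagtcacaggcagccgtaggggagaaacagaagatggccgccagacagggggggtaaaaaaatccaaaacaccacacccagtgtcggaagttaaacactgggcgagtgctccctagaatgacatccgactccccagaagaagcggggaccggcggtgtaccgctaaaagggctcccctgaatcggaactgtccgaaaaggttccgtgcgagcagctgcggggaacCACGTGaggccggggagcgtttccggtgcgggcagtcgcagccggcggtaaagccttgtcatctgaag
The Ldha window held 2 matches and the Nme1 window 1. CACGTG was found in 7.15% of the 32851 promoter windows, in 8.09% of genes with a window and in 12.1% of the 8736 tested genes with a window. It was in 1 of the 12 glycolysis genes called lower (8.33%) and in 2 of the 7 nucleotide synthesis genes called lower (28.6%). These shares describe letters in a window and say nothing of whether a factor bound there.

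Matrix genes moved in both directions. Of 43 tested genes of hyaluronan and extracellular matrix 10 were higher and 5 lower, against 6.93% and 5.34% over all tested genes, with a median of 0.54. Col12a1, Efemp1 and Mfap5 had a CD44Neg median of 0, so that their direction was in part set by the filter on low counts, and Efemp1 and Mfap5 were among the 10. Of these 15 calls 5 held in all 10 fits without 1 library. Fn1, which encodes fibronectin, stood at 1574, 2321 and 2258 CPM against 339.5 to 638 (median 498) CPM (difference 2.04 ± 0.22, edgeR adjusted p = 2.81e-04). Fbn1, a fibrillin of elastic microfibrils, stood at 346, 638 and 564 CPM against 15.5 to 99.6 (median 59.6) CPM (difference 3.07 ± 0.41, edgeR adjusted p = 8.51e-04). The collagen gene Col5a2 rose by 1.22 ± 0.23 (edgeR adjusted p = 0.00503). These genes did not overlap between groups and held their calls without any 1 library, while Col5a2 lost its call with all 22 libraries in the fit. Of the falls, Emilin1, of elastic fibres, stood at 44.7, 68.8 and 89.9 CPM against 76.00 to 202 (median 94.7) CPM (difference -1.03 ± 0.21, edgeR adjusted p = 0.00778), with overlap. Of 11 tested genes of hyaluronan, the ligand of CD44, the receptor gene Stab2 and the hyaluronidase gene Hyal2 were lower and Tmem2, a cell-surface hyaluronidase chosen after its values were seen, was higher (0.80 ± 0.23, edgeR adjusted p = 0.0377), a call lost in 6 of the 10 fits without 1 library. The median of these 11 genes was 0.80. Hyal2 stood at 114, 133 and 104 CPM against 178 to 231 (median 204) CPM (difference -0.81 ± 0.17, edgeR adjusted p = 0.00964), and lost its call without CD44LoKitNeg replicate 14.

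Of 34 tested lysosomal genes 9 were higher and 2 lower, against 6.93% and 5.34% over all tested genes, with a median of 0.42. The protease genes Ctsh and Ctsl and the lipase gene Lipa held their calls without any 1 library. Ctsh stood at 248, 376 and 463 CPM against 57.1 to 119 (median 66.4) CPM (difference 1.98 ± 0.24, edgeR adjusted p = 5.37e-04), and Ctsl at 835, 597 and 849.7 CPM against 260.2 to 408 (median 314) CPM (difference 1.199 ± 0.16, edgeR adjusted p = 7.22e-04). Of 29 sphingolipid genes 5 were higher and 1 lower, with a median of 0.16. The ceramidase gene Acer2, whose product releases sphingosine from ceramide, stood at 144, 144 and 199.6 CPM against 10.4 to 64.1 (median 40.4) CPM (difference 2.14 ± 0.46, edgeR adjusted p = 0.0104). It lost its call without CD44LoKitNeg replicate 14 (adjusted p = 0.0554), and no sphingolipid call held in all 10 of these fits. Of 37 tested autophagy genes only Atg12 was called (1.63 ± 0.44, edgeR adjusted p = 0.0308), with overlapping ranges and a median of 0.06 for the list, a share below the background. Its call was lost without CD44LoKitNeg replicate 14 or 16 or CD44Neg replicate 4, 8 or 10.

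The genes that the study names as markers of each population were chosen by it on its own single-cell and bulk data, the latter with these libraries among them, so they are not independent evidence of direction. Some also belong to lists above. Read against 6.93% called higher and 5.34% called lower over all tested genes, without them 11 of 23 arterial genes, 2 of 23 Notch pathway genes and 4 of 28 BMP and TGF-beta genes were called higher, and 5 of 10 venous genes, 3 of 22 tip cell genes and 1 of 23 WNT genes were called lower. The Notch share and the share of WNT genes called lower were near those over all tested genes, while 3 of 23 WNT genes were called higher. Hey1, which the study also names as higher in CD44LowKitNeg cells, remained among these arterial and Notch calls. Of 14 of its markers of CD44LowKitNeg cells listed here 11 were higher, and the other 3, Smad7, Sox6 and Pde3a, had positive values that did not pass the test (edgeR adjusted p = 0.0581, 0.119 and 0.233). The list is not complete, since the study also names Hey1, Dll4, Notch1, Runx1, Nfe2 and Ifitm1 as higher or switched on in these cells. Of these Hey1, Runx1 and Ifitm1 were called and Dll4, Notch1 and Nfe2 were not. Dll4 and Notch1 overlapped between the groups. All 14 of the list were without overlap between the groups, against 14.4% of all tested genes. Akr1c14, a steroid dehydrogenase, had the largest log2 fold change among them, at 234, 399 and 64.3 CPM against 0 to 12.9 (median 4.05) CPM (difference 7.53 ± 0.95, edgeR adjusted p = 6.11e-04). Fas, a death receptor, stood at 95.7, 112 and 103 CPM against 0 to 17.97 (median 10.7) CPM (difference 3.63 ± 0.68, edgeR adjusted p = 0.00554). Adgrg6, an adhesion receptor, stood at 32.3, 64.6 and 149.7 CPM against 5.35 to 16.3 (median 10.4) CPM (difference 2.60 ± 0.46, edgeR adjusted p = 0.00418), and was lowest in the E9.5 library. Of its 10 markers of CD44Neg cells 8 were lower. Pde2a, a phosphodiesterase of cyclic nucleotides, stood at 7.54, 6.51 and 12.2 CPM against 65.6 to 208 (median 110.2) CPM (difference -3.94 ± 0.34, edgeR adjusted p = 1.01e-04). The exceptions were Nr2f2, given above, and Hmmr, a hyaluronan-binding protein of the spindle, at 252, 115 and 25.2 CPM against 54.6 to 161 (median 85.4) CPM (0.42 ± 0.41, edgeR adjusted p = 0.584).

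Some called genes were found in 1 population only at this depth. Such a gene passed the filter on low counts only through the population that held it, so its direction was set by the filter. A level of 0 in 3 libraries is also easier to reach than in 7, so the numbers of such genes are not compared. There were 15 called genes at 0 in all 3 CD44LoKitNeg libraries. Besides Apln they included Gas7, a cytoskeletal adaptor, at 7.53 to 35.6 (median 22.3) CPM in CD44Neg and at least 50.6-fold lower, and Lhx6, a homeodomain factor, at 8.499 to 54.8 (median 15.5) CPM and at least 47.2-fold lower. Kbtbd11 was at 3.297 to 20.9 (median 8.32) CPM and at least 24.8-fold lower. There were 3 called genes at 0 in all 7 CD44Neg libraries. Besides Was these were the carboxylesterase gene Ces2b, at 7.07, 12.3 and 23.8 CPM in CD44LoKitNeg and at least 23.5-fold higher, and Gm10400, at 8.98, 43.1 and 2.83 CPM and at least 29.8-fold higher. Without CD44LoKitNeg replicate 15 the bound for Gm10400 was 9.63-fold and its call was lost (edgeR adjusted p = 0.0788), as it was without replicate 14 (0.0604). The Ces2b call was lost without replicate 14 (edgeR adjusted p = 0.0559). The lectin receptor gene Clec4e came close, at 17.6, 139 and 13.9 CPM against 0 in 6 CD44Neg libraries and 2.10 CPM in replicate 7. Its direction was in part set by the filter as well.

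The stage dependence of the population difference was tested within the early days and against E11. Between E9.5 and E10, where a single CD44LoKitNeg library stood for E9.5, edgeR called 0 genes, with 530 at an unadjusted p under 0.05 and a lowest adjusted p of 0.121. DESeq2 called 47 and limma voom 0. When the 3 CD44Neg and 3 CD44LoKitNeg libraries of E11 were added, the difference at E11 departed from the early difference for 114 of 11022 tested genes (1.03%), 27 upwards and 87 downwards, with 1364 at an unadjusted p under 0.05. Of these 114 genes 55 had a larger difference of the same sign at E11, 2 a smaller one and 57 a difference of opposite sign. In the same fit the number of calls was 45 without CD44LoKitNeg replicate 14, 48 and 58 without CD44Neg replicates 1 and 2, and 162 without CD44Neg replicate 6. CPM in these 16 libraries were scaled together, so early values differ slightly from those above.

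For several genes the early populations overlapped and the E11 populations did not. Ecm1, an extracellular matrix protein, stood at 607, 737 and 561 CPM in the E11 CD44LoKitNeg libraries and at 145, 102 and 135 CPM in the E11 CD44Neg libraries. In the early libraries it stood at 151, 183 and 115 CPM and 124 to 187 (median 138) CPM, which overlap. The E11 difference exceeded the early one by 2.27 ± 0.30 (edgeR adjusted p = 0.00103). Gatm, an enzyme of creatine synthesis, was at 0 in all 3 E11 CD44LoKitNeg libraries and at 33.1, 53.1 and 20.7 CPM in E11 CD44Neg (edgeR adjusted p = 7.32e-05). Its early levels overlapped, at 66.7, 27.3 and 11.5 CPM against 14.2 to 50.4 (median 21.4) CPM. Rps6ka6, a ribosomal S6 kinase, was likewise at 0 in E11 CD44LoKitNeg (edgeR adjusted p = 2.11e-04) and at 80.8, 25.7 and 25.3 CPM in the early CD44LoKitNeg libraries. Mycn, the Myc relative of embryonic progenitors, stood at 96.2, 133 and 113 CPM in early CD44LoKitNeg and at 32.6 to 97.1 CPM in early CD44Neg. At E11 it was lower in CD44LoKitNeg, at 3.86, 4.66 and 7.004 CPM against 33.9, 41.4 and 48.8 CPM in CD44Neg. The difference moved by -3.86 ± 0.53 (edgeR adjusted p = 0.0016). Ramp2, the partner of Calcrl in the adrenomedullin receptor, stood at 1696, 1870.3 and 1768 CPM against 557, 504 and 684 CPM at E11 and at 380.4, 498 and 571 CPM against 301 to 457 (median 359.7) CPM early (change 1.28 ± 0.20, edgeR adjusted p = 0.00378).

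For other genes the early difference was present and widened. Pde2a was at 0 in all 3 E11 CD44LoKitNeg libraries against 208, 162 and 221 CPM in E11 CD44Neg, where the early CD44LoKitNeg libraries still held 7.39, 6.35 and 11.9 CPM (edgeR adjusted p = 4.74e-05). Nrp2 followed the same order, with 0 in all E11 CD44LoKitNeg libraries against 115, 102 and 134 CPM in E11 CD44Neg (edgeR adjusted p = 0.00284). Bmpr1a widened from both sides, at 96.7, 89.3 and 98.4 CPM against 0, 0.198 and 0 CPM (edgeR adjusted p = 0.001). Tek widened by 1.07 ± 0.20 (edgeR adjusted p = 0.0175), with E11 levels of 1564, 1356 and 1644 CPM against 348, 455 and 452 CPM. Aplnr stood at 0, 1.07 and 0 CPM in E11 CD44LoKitNeg against 722, 645 and 354 CPM in E11 CD44Neg (edgeR adjusted p = 0.0242), a call lost in 6 of the 16 fits without 1 library. Its early CD44LoKitNeg libraries held 1.52 CPM at E9.5 and 25.2 and 111 CPM at E10, so the E9.5 library was already near the E11 level.

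For some genes called lower early the sign turned at E11. Emilin1 stood at 173, 143 and 129 CPM in E11 CD44LoKitNeg against 102, 90.6 and 98.7 CPM in E11 CD44Neg, and its fitted difference went from -1.08 early to 0.61 at E11 (change 1.69 ± 0.29, edgeR adjusted p = 0.00777). The groups did not overlap at E11. Stab1, one of the 7 venous calls, stood at 450.1, 393 and 371 CPM against 290.0, 320.3 and 371 CPM at E11, and its fitted difference went from -1.35 to 0.31 (change 1.65 ± 0.37, edgeR adjusted p = 0.0419). That change was lost in 13 of the 16 fits without 1 library. Hoxa9, called higher early, had a smaller difference at E11. It stood at 64.1, 63.1 and 67.2 CPM against 26.6, 45.6 and 58.9 CPM at E11, and its early difference exceeded that at E11 by 1.73 (SE 0.40, edgeR adjusted p = 0.0472). The Hoxa9 call was lost in 13 of the 16 fits without 1 library, and the Tek call without CD44Neg replicate 1 or CD44LoKitNeg replicate 14.

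**Figure D4:**
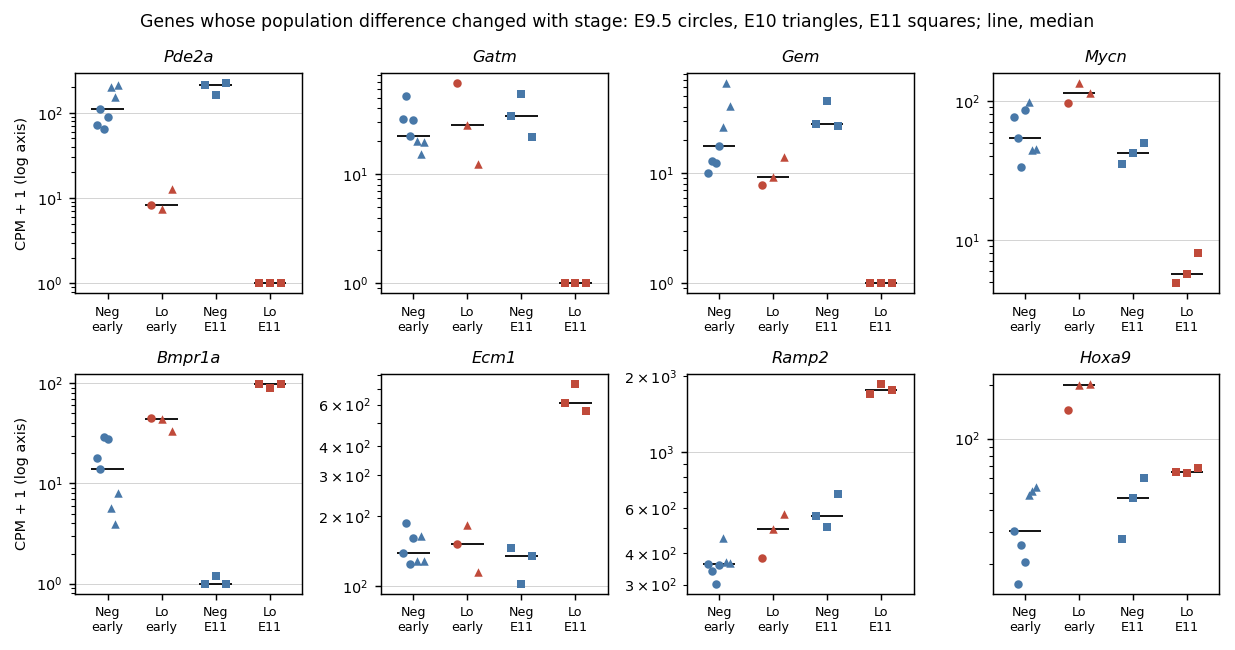
Normalized levels (CPM + 1, log axis) of 8 genes in early and E11 libraries of both populations, CD44Neg in blue and CD44LoKitNeg in red, with E9.5 as circles, E10 as triangles, E11 as squares and the group median as a line. Pde2a, Gatm and Gem were at 0 in all 3 E11 CD44LoKitNeg libraries but not in the early ones, and Ramp2 was higher in each E11 CD44LoKitNeg library than in any other library shown.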

How the data were processed

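RNA of 25 sorted cells per library was amplified with SMART-Seq2. On Galaxy, the authors removed adaptors (FASTX), aligned the reads (RNA STAR) and summed them per gene (htseq-count), and they deposited the raw counts of 24454 gene symbols. Build mm10 is named in the submitters' processing notes. The annotation, the strand setting and the handling of shared reads are not given in the sources used here. Samples were grouped by their labels, and no column stayed unassigned. In R 4.3.3 with edgeR 4.0.16, genes were kept by filterByExpr with a minimum count of 10 and a total of at least 15. After TMM scaling, a quasi-likelihood test (prior count of 0.125) of population with stage as a covariate was adjusted by Benjamini-Hochberg. Standard errors were derived from the F statistic. Alternatives used DESeq2 1.42.0 and limma 3.58.1. Tables and figures were made with pandas 2.3.3 and matplotlib 3.10.9 under Python 3.11.15. E11 was compared with the early days by an interaction over 16 libraries. The steps were tested on simulated data.

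The members and gene lists were chosen with earlier results of these data known. The genes named are the sorting and study markers, the 8 largest rises and falls among called genes without overlap, up to 4 called genes of smallest adjusted p per list and direction, the Notch ligands and receptors, the blood factors, and up to 6 genes per direction of the E11 interaction. Gja4, Gja5, Epas1, Vegfc, Sox7, Sox17, Id1, Procr, Angpt1, Ptprc, Cd68, Mrc1, Cx3cr1, Fcgr3, Tmem2, Hk1, Hk2, Mki67, the uncalled sex-linked genes, the E11 values of Aplnr, Col5a2, Emilin1, Kcne3 and Stab1, and the further glycolysis genes were chosen after their values were seen. 1 further gene that meets this rule is not reported here.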

Additional observations from a re-analysis of the deposited data

Results flagged for a closer look

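A single library stood apart from the other 6 of its group in 13 of the 154 groups of CD44Neg values examined, by a gap of over 0.568 of the range. That cut is made for normal values. Most of these were unlogged CPM of E9.5 and E10 together, some at 0 in nearly all libraries, so nothing is read from the number. The CD44LoKitNeg groups, with 3 libraries, were too small to examine. Replicate 6, which also had the lowest share of Rn45s, held the highest Ets1 (727 CPM, with the others at 196 to 359), Adam10 (673 CPM, others 261 to 379.8), Arhgdib (246 CPM, others 76.2 to 132), Krt18 (35.3 CPM, others 0 to 11.1) and Gfi1 (4.51 CPM, others 0 to 0.655), and the lowest Clec14a (129 CPM, others 205 to 241). Replicate 9 held the highest Egfl7 (1761 CPM, others 789 to 1066), Tgfbi (40.4 CPM, others 0 to 5.83) and Lyz2 (5.03 CPM, others 0 to 1.39). Replicate 4 alone held Hlf (4.56 CPM) and Myb (6.34 CPM), and replicate 7 alone held Clec4e (2.10 CPM). The total count of replicate 7 was 7132809, with the others at 4049022 to 5226538.

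For 16 named genes the population difference at E11 departed from the early one by edgeR's interaction test. The change in the log2 fold change was 2.27 for Ecm1, 1.86 for Col5a2, 1.69 for Emilin1, 1.65 for Stab1, 1.28 for Ramp2, 1.07 for Tek, -1.73 for Hoxa9 and -3.86 for Mycn. The fitted changes of -9.18 for Pde2a, -11.22 for Gatm, -9.73 for Rps6ka6, -9.05 for Gem and -8.45 for Nrp2, each at 0 in all 3 E11 CD44LoKitNeg libraries, of -6.29 for Aplnr and -6.41 for Kcne3, each at 0 in 2 of them, and of 7.79 for Bmpr1a, near 0 in E11 CD44Neg, depend on the prior count and are no bounds.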

How the results depend on the processing

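The 1388 early calls became 2193 with DESeq2's Wald test, 469 at an adjusted p under 0.01, 124 with E10 alone, and 648 to 1569 when 1 library was left out. With upper-quartile scaling, DESeq2's size factors, at least 10 counts in every library, no filter, limma voom, Rn45s left out, thinned counts, no stage covariate, and 16 or 22 libraries in the fit, the count stayed within 1.5 times, from 1091 (no stage covariate) to 2004 (limma voom). The 114 genes of the E11 interaction became 468 with no filter, 388 with DESeq2, 29 at 0.01, 23 with E10 and E11 alone, and 45 to 162 without 1 library. The 0 genes of the E10 against E9.5 interaction became 47 with DESeq2. Arterial genes called higher went from 14 to 7 with 22 libraries and 7 with E10 alone, and to 9 to 15 without 1 library. Venous genes called lower went from 7 to 4 with 22 libraries and 3 with E10 alone, and to 5 to 8. Blood factors called higher went from 12 to 3 at 0.01 and 3 with E10 alone, and to 4 to 13. Glycolysis genes called lower went from 12 to 3 with E10 alone. E10 alone has fewer libraries, and the cause of the other moves was not tested.

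Among the named genes, for which signs were tabulated, reversals touched only genes that were not called. Kit became 0.000459 with DESeq2's size factors, 0.012 with at least 10 counts, 0.000163 with DESeq2's test, 0.10 with limma voom and -0.60 to 0.34 without 1 library. Notch1 became 0.021 with limma voom, 0.028 without the stage covariate and -0.21 to 0.053 without 1 library. Notch4 became 0.24 without the stage covariate, 0.11 with 22 libraries, 0.15 with E10 alone and -0.40 to 0.15 without 1 library. E10 alone gave 0.30 for Lmo2 (-0.62 to 0.30 without 1 library), -0.062 for Hmmr (-0.061 to 0.87), -0.0886 for Hk1 (-0.12 to 0.60) and -0.0911 for Mki67 (-0.24 to 0.52). Hk2 was -0.46 with limma voom, -0.40 without the stage covariate and -0.35 to 1.002 without 1 library.

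No paired analysis was possible because the labels do not say whether libraries of the populations came from the same embryos. The replicate numbers run through the whole series and carry no pairing. Depth limits genes near the 0.359 to 0.728 CPM that a count of 0 allows, and a single CD44LoKitNeg library at E9.5 limits any statement on that day alone.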

Other observations

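A few smaller gene groups outside the comparisons above held single calls, read here against 6.93% called higher and 5.34% called lower over all tested genes. The retinoic acid-degrading enzymes Cyp26a1 and Cyp26b1 were both higher in CD44LoKitNeg, while the other 9 of 11 tested genes of retinoic acid metabolism and reception were not called. Cyp26b1 stood at 119, 115 and 102 CPM against 11.1 to 51.1 (median 31.7) CPM (difference 2.07 ± 0.41, edgeR adjusted p = 0.00709), and Cyp26a1 at 95.8, 22.4 and 51.2 CPM against 2.27 to 37.2 (median 18.04) CPM (difference 2.58 ± 0.47, edgeR adjusted p = 0.00478), with overlap. Both calls held without any 1 library, but both were lost with E10 alone, and that of Cyp26a1 also without the stage covariate and with all 22 libraries in the fit. Of 18 tested HOX genes Hoxa9 alone was called, with a median of -0.29 for the list. Of 15 shear-responsive genes 3 were higher, and 1 of these calls held in all 10 fits without 1 library, that of the LIM protein gene Pdlim1, at 190.3, 152 and 132 CPM against 3.28 to 40.3 (median 31.4) CPM (difference 3.27 ± 0.41, edgeR adjusted p = 6.11e-04).

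Among 29 tested guidance genes 3 were higher and 2 lower, shares near the 6.93% and 5.34% over all tested genes. The secreted repellent gene Slit2 stood at 49.1, 78.2 and 51.3 CPM against 8.99 to 34.2 (median 19.1) CPM (difference 1.53 ± 0.42, edgeR adjusted p = 0.0327) and the semaphorin receptor gene Plxna2 at 60.00, 64.6 and 109 CPM against 11.4 to 40.04 (median 30.2) CPM (difference 1.63 ± 0.40, edgeR adjusted p = 0.0192), while Plxnd1 was lower (-0.69 ± 0.21), with overlap and a call lost in 8 of the 10 fits without 1 library. The Slit2 and Plxna2 calls were lost without CD44LoKitNeg replicate 16 or CD44Neg replicate 8, and the Slit2 call also without CD44LoKitNeg replicate 14 or 15 or CD44Neg replicate 9. Of 23 death receptor and survival genes Fas and Mcl1 were higher and Bax, which permeabilises mitochondria, was lower, shares of the list near those over all tested genes. Bax stood at 92.7, 70.95 and 94.2 CPM against 124 to 232 (median 185) CPM (difference -0.91 ± 0.20, edgeR adjusted p = 0.0103). The Bax call was lost without CD44LoKitNeg replicate 14, and the Mcl1 call (0.70 ± 0.20) in 7 of the 10 fits without 1 library. Of 18 immediate-early and heat shock genes, which respond to handling of cells, the chaperone gene Hspa8 alone was called and was lower (-0.88 ± 0.15, edgeR adjusted p = 0.00345).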
